A study of Mus musculus with 60 samples.

Results

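Ntrk2, Chrna4, Ly6d and Lhx2 are 4 of the 54232 genes counted in mouse liver, subcutaneous fat and visceral fat. They were chosen by name after the liver values of these same libraries were known, because each was low in control livers and higher on Western diet. Their liver values are therefore given as a description without p-values, and only their values in fat, which the choice did not use, are tested. Each tissue had 4 groups of 5 libraries, 60 libraries in all, from mice kept 12 weeks on their diet. The control group ate chow whose fat made up 11%, its carbohydrate 62% and its protein 27.0%. In the Western diet fat made up 42%, carbohydrate 42.7% and protein 15.2%. The control+NaKtide and Western+NaKtide groups ate the same diets with 300 mg/kg doxycycline, which switches on a NaKtide transgene. NaKtide is a short peptide taken from the sodium pump of the cell membrane, the Na,K-ATPase. The series title speaks of adipocytes, but the labels used here name no promoter that drives the transgene. They also do not say whether mice without NaKtide carried the transgene or ate doxycycline, so the agent and the peptide cannot be told apart. Strain, sex and age were not given, nor whether the tissues came from the same mice, and p-values measure only the spread between these samples.

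Ntrk2 encodes TrkB, the receptor tyrosine kinase for the growth factors BDNF and neurotrophin-4. Ligand binding pairs the receptors, which then signal through adaptor proteins to the MAP kinase, PI3 kinase and phospholipase C pathways, best known in neurons. Chrna4 encodes the alpha4 subunit of neuronal nicotinic acetylcholine receptors, ion channels built of 5 subunits in which alpha4 usually joins beta2, the product of Chrnb2. Ly6d encodes a small protein of the Ly6/uPAR family held on the cell surface by a lipid anchor, known as a marker of early B cells, some T cells and squamous epithelium. Lhx2 encodes a LIM homeobox transcription factor, required for forebrain, eye and hair follicle development and, in liver, known from stellate cells.

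In GRCm38 with GENCODE M21, Ntrk2 (ENSMUSG00000055254) spans chromosome 13 from 58806569 to 59133970 on the + strand. Chrna4 (ENSMUSG00000027577) lies on chromosome 2 from 181018380 to 181043546 on the - strand. Ly6d (ENSMUSG00000034634) lies on chromosome 15 from 74762056 to 74763620 on the - strand, and Lhx2 (ENSMUSG00000000247) on chromosome 2 from 38339281 to 38369733 on the + strand. All are protein-coding, with 10, 5, 1 and 7 annotated transcripts in that order, and counts per gene do not say which transcript was made. Antisense genes overlap Ntrk2 and Lhx2, and C630044B11Rik overlaps Ntrk2 on the same strand. None of these overlapping genes had more than 1 count in any liver.

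The promoters are shown because all 4 genes were higher in Western than in control livers, the property by which they were chosen. RefSeq promoter sequence (GRCm38.p6, from 250 bases before to 50 after a gene's start, 5′ to 3′ on the gene's strand) was given for 3 of the 4 genes, and CpG pairs are in capitals. The Chrna4 start lies inside the GENCODE gene model rather than at its end, and for Lhx2 the first of its 2 listed starts is printed.
Ntrk2, chr13:58806319-58806618, + strand: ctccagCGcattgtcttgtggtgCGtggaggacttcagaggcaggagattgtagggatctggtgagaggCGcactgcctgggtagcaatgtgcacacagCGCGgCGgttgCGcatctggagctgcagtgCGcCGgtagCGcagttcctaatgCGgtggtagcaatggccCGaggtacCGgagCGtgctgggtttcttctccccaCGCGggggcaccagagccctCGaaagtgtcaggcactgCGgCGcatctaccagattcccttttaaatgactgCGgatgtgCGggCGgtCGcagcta
Chrna4, chr2:181039128-181039427, - strand: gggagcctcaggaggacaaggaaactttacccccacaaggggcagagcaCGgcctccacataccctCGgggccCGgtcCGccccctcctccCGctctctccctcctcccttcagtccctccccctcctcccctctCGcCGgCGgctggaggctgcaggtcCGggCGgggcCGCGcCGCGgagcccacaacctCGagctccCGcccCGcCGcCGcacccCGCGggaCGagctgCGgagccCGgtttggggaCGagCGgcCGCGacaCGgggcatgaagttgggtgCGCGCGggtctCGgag
Lhx2, chr2:38339031-38339330, + strand: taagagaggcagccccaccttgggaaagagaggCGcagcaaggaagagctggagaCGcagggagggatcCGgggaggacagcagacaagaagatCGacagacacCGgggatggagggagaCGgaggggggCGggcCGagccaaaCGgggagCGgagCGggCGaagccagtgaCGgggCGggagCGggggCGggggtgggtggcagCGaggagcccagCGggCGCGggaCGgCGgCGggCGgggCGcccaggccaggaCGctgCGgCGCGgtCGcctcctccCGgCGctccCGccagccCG
All are rich in CpG. The Ntrk2 promoter holds 23 CpG pairs at 61.3% GC, that of Chrna4 33 at 74.3% and that of Lhx2 34 at 74.7%, against medians of 7 CpG pairs and 52.7% GC over 32851 promoters of the same length. The second Lhx2 start, at chr2:38351058-38351357, has 29 CpG pairs and 69.3% GC. Of 8 short motifs searched on both strands, 7 were found in none of these 4 windows: the TATA box TATAAA (in 13.6% of all promoters), the STAT motif TTCNNNGAA (8.3%), the E-box CACGTG (7.15%), the direct repeats of the nuclear receptor half-site AGGTCA at a spacing of 1 (0.0396%) and of 4 bases (0.0152%), the HNF1 motif (0.00913%) and the C/EBP motif TTGCGCAA (0.183%). The core of the antioxidant response element, TGACNNNGC, present in 12.4% of promoters, was matched once, as TGACGGGGC at base 170 of the Lhx2 sequence. These are matches of letters and show neither binding nor use.

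Libraries held 3.18 to 7.16 M counts in liver, 3.49 to 9.78 M in subcutaneous fat and 4.19 to 9.49 M in visceral fat, where M stands for 1e+06. CPM are counts per M counts of a library after TMM scaling within a tissue. The liver label fits the hepatocyte markers, whose summed level was 26504 to 41793 CPM in every liver. The transgene has no row in the table, so it gives no check of which group a library belongs to. Several libraries stand apart. Western liver 1 had the highest sums of its group for fibroblast markers (253 CPM against 28.3 to 66.7) and lipid-associated macrophage markers (21.2 CPM against at most 7.2). The first of these sums lies within the Western+NaKtide range. Results that rest on it or on Western+NaKtide liver 1 are given with and without both. Control livers 2 and 4 held skeletal muscle transcripts. Visceral libraries of control mice 3, 4 and 5, control+NaKtide mouse 1 and Western+NaKtide mice 2 and 5 held more than 1000 CPM of epididymis and testis markers.

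Ntrk2 was all but absent from control livers and present in every liver of the other groups. In control livers it had 0.237 CPM in library 1, from 1 count, and 0 in the other 4. On control diet with NaKtide it stood at 1.54, 4.05, 2.05, 14.6 and 12.3 CPM in libraries 1 to 5. Livers 4 and 5 of that group were the high ones, and its lowest liver was still above every control liver. On Western diet the values were 10.5, 18.7, 6.99, 26.3 and 9.68 CPM, and with NaKtide on Western diet 25.3, 12.1, 18.2, 26.1 and 29.6 CPM. All 10 Western-fed livers lay above the 5 controls, while the Western and Western+NaKtide groups overlapped. Summed over libraries the control group had 1 Ntrk2 count and the Western group 421, a ratio of 360 at equal depth with a 95% exact counting interval of 64.3 to 14250. For NaKtide on control diet the counts were 247 against 1 and the ratio 192, with an interval of 34.1 to 7605. These intervals cover counting error only. The fitted log2 differences, 7.76 ± 0.99 (SE) for diet and 6.72 ± 1.07 for NaKtide on control diet, depend on the prior count added to that single read. Between groups with counts the differences were smaller: 1.65 ± 0.47 for diet under NaKtide and 0.62 ± 0.45 for NaKtide on Western diet (0.95 without Western liver 4).

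Chrna4 was highest on Western diet without NaKtide. Control livers had 0.474, 0.523, 2.52, 2.37 and 1.76 CPM (2 to 11 counts), so the transcript was low but counted in each. Western livers had 61.1, 48.8, 59.9, 28.5 and 33.7 CPM, and the log2 difference was 4.97 ± 0.49. With NaKtide on Western diet the values were 11.5, 14.0, 3.75, 6.82 and 8.46 CPM. Every one of these lay below the lowest Western liver, at a log2 difference of -2.34 ± 0.39 (-2.33 without both libraries numbered 1). On control diet with NaKtide it had 6.74, 9.72, 9.0, 27.7 and 20.8 CPM, all above the controls, at a log2 difference of 3.33 ± 0.49. The NaKtide groups on the 2 diets overlapped (-0.71 ± 0.39, and -0.34 without control+NaKtide liver 4). NaKtide mice thus had the higher level on control diet and the lower level on Western diet, and the difference between those 2 effects was -5.67 ± 0.62.

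Ly6d was highest where diet and NaKtide were combined. Its values were 2.84, 1.40, 0.945, 1.30 and 1.17 CPM in control livers and 2.81, 1.62, 1.11, 11.4 and 3.7 CPM with NaKtide on control diet. Those groups overlapped, and liver 4 with NaKtide, at 96 counts, held most of the second group's 155. Western livers had 91.8, 48.0, 12.4, 15.7 and 20.7 CPM, all above the controls, at a log2 difference of 4.60 ± 0.66 (3.95 without both libraries numbered 1). Western+NaKtide livers had 98.1, 133, 86.2, 217 and 149 CPM. Western liver 1 alone reached into their range, and the log2 difference between these groups was 1.85 ± 0.48, or 2.60 without both libraries numbered 1. Without them the Western livers ended at 48.0 CPM and the Western+NaKtide livers began at 86.2 CPM. The diet difference under NaKtide was 4.97 ± 0.58 with no overlap. For NaKtide on control diet the difference was 1.49 ± 0.73, and 0.61 without control+NaKtide liver 4.

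Lhx2 was low throughout, at 2 to 24 counts per liver. Control livers had 0.474, 1.05, 0.945, 0.432 and 0.585 CPM and Western livers 4.06, 2.46, 2.69, 2.02 and 3.49 CPM, without overlap and at a log2 difference of 2.04 ± 0.35. The groups with NaKtide lay between, at 1.40, 0.810, 1.74, 2.02 and 1.39 CPM on control diet and 3.28, 1.56, 2.94, 1.78 and 2.12 CPM on Western diet. Control+NaKtide livers overlapped the controls and met the lowest Western liver at 2.02 CPM, while Western+NaKtide livers overlapped the Western group and lay above every control. The differences were 0.65 ± 0.31 for diet under NaKtide, -0.31 ± 0.29 for NaKtide on Western diet (-0.49 without Western+NaKtide liver 1 and -0.16 without Western liver 1) and 1.08 ± 0.37 for NaKtide on control diet.

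**Figure D1:**
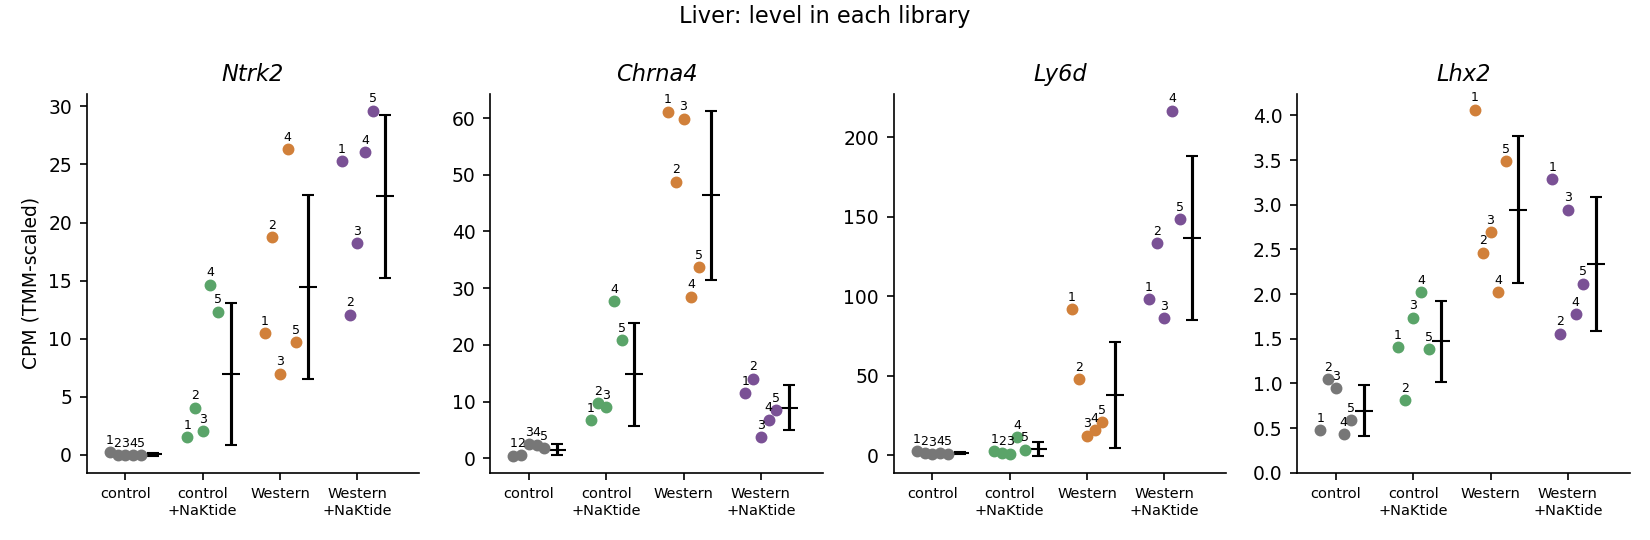
CPM of each gene (vertical axis, TMM-scaled, a scale of its own in each panel) in the 20 livers, by group, with the library number above each point and the group mean ± SD (n = 5) beside it. Chrna4 is highest in the Western group, at 28.5 to 61.1 CPM, and Ly6d in the Western+NaKtide group, at 86.2 to 217 CPM.

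All 4 genes passed the low-count filter in liver, but through the groups where they were high. Without NaKtide 4 of 4 were higher on Western diet in every library, as were 3.99% of the 12991 liver genes tested. Under NaKtide this held for 1 of 4, Ly6d, against 7.11% of genes. For NaKtide on Western diet 1 of 4, Chrna4, was lower without overlap, as were 2.41% of genes. For NaKtide on control diet 2 of 4, Ntrk2 and Chrna4, were higher without overlap, as were 2.52% of genes. Since liver values chose the genes, nothing is read from these shares. The 2 diet comparisons and the 2 NaKtide comparisons share groups in pairs, so they are not independent of each other.

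**Figure D2:**
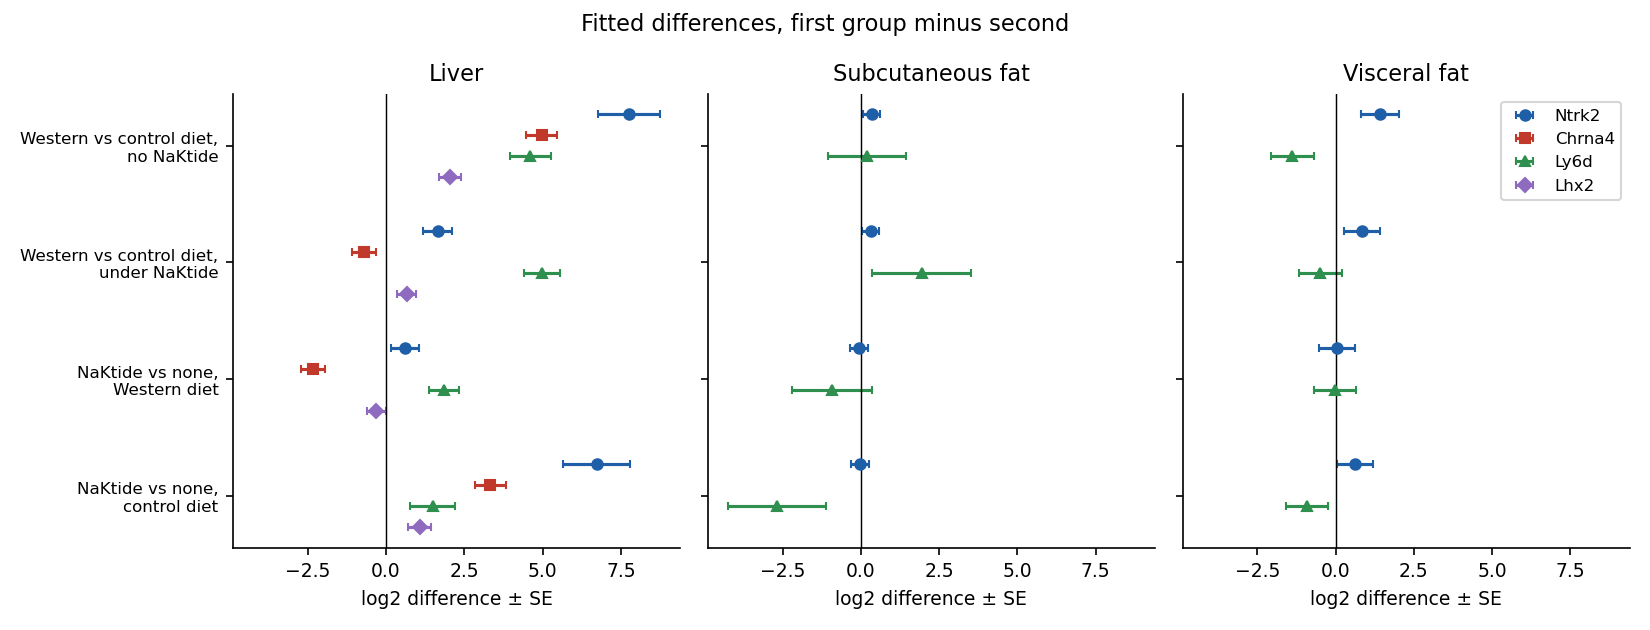
Fitted log2 difference ± SE (horizontal axis) of each gene for 4 comparisons (vertical axis) in liver and both fat depots. In liver Chrna4 lies at 4.97 for diet and -2.34 for NaKtide on Western diet, and in fat Chrna4 and Lhx2 had too few counts to be fitted.

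Across the 20 livers the members were least alike for Chrna4 with Ly6d. Pearson's r of log2 CPM was 0.83 for Ntrk2 with Ly6d, 0.78 for Ntrk2 with Lhx2 and 0.75 for Chrna4 with Lhx2. It was 0.73 for Ntrk2 with Chrna4, 0.72 for Ly6d with Lhx2 and 0.47 for Chrna4 with Ly6d. After the group means were removed these were, in that order, 0.49, -0.03, 0.08, 0.26, 0.17 and 0.29. They are given as a description of 20 libraries that share tissue, diet and depth. Control+NaKtide livers 4 and 5 had the highest Ntrk2 and Chrna4 of their group, and liver 4 the highest Lhx2 and Ly6d. The same 2 livers had the highest sums of B cell markers of their group (139 and 92.2 CPM against 38.7 to 45.7) and of the adipocyte list (88.4 and 74.9 CPM against 6.0 to 14.0). In both livers Adipoq, Plin1 and Lep of the adipocyte list had 0 counts, while Cidec reached 76.8 CPM in their group. The part of the B cell and adipocyte sums in the result was not tested. The share of mitochondrial counts was 4.86 to 7.18% in control, 5.33 to 6.87% in control+NaKtide, 5.64 to 11.6% in Western and 7.06 to 16.9% in Western+NaKtide livers, and its r with Ly6d was 0.70 over all livers and 0.29 within groups.

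**Figure D3:**
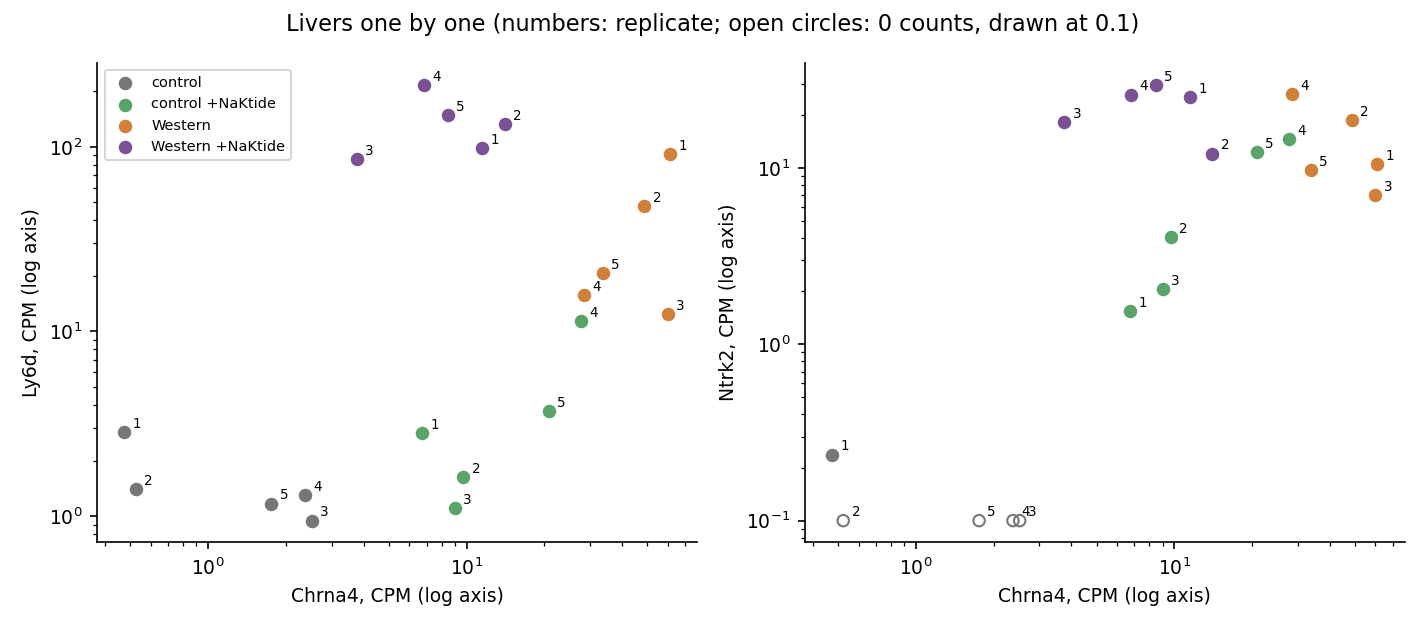
Ly6d (left) and Ntrk2 (right) against Chrna4, in CPM on log axes, for each of the 20 livers. Western livers hold the highest Chrna4 (28.5 to 61.1 CPM) and Western+NaKtide livers the highest Ly6d (86.2 to 217 CPM) at 3.75 to 14.0 CPM of Chrna4.

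In bulk tissue, more cells of a type and more RNA per cell cannot be told apart, so marker lists of other cell types are set beside these results. Neuron markers (5 genes) summed to 0.237 to 2.34 CPM over all livers with Elavl4 at 0, and Schwann cell markers (5 genes) to 0.474 to 3.97 CPM. Squamous epithelium markers (6 genes) summed to 0.268 to 2.91 CPM, with Krt15, Trp63 and Dsg3 at 0. Ly6d reached 217 CPM, and the part of squamous epithelium in its levels was not tested. The T cell list (5 genes) stayed at 0.803 to 7.29 CPM. The B cell list (7 genes) ran from 13.9 to 32.0 CPM in control, 38.7 to 139 in control+NaKtide, 30.1 to 73.6 in Western and 30.2 to 41.3 in Western+NaKtide livers, and its part in the Ly6d levels was not tested. Stellate cell markers (9 genes) ran from 204 to 358 CPM in control, 249 to 326 in control+NaKtide, 212 to 433 in Western and 342 to 457 in Western+NaKtide livers. Fibroblast markers (6 genes) ran from 11.5 to 36.3, 17.5 to 51.2, 28.3 to 253 and 75.1 to 327 CPM in the same order. Lipid-associated macrophage markers (4 genes) ran from 1.56 to 5.67, 1.01 to 7.03, 2.33 to 21.2 and 33.7 to 63.2 CPM. Both of these lists, like Ly6d, were highest in Western+NaKtide livers, and their part in the Ly6d levels was not tested. In the stellate cell list Ecm1 alone ran from 88.4 to 261 CPM over the livers, so the sum says little about its lower members. Of that list only Lrat did not overlap between control and Western livers, at 1.95 to 6.26 and 6.78 to 12.5 CPM. The part of stellate cells in the Lhx2 levels was not tested.

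Fat carried into the liver sample was checked for Ntrk2, which fat expresses strongly. Of the fat-defining genes, Adipoq, the adipocyte hormone adiponectin, and Plin1, a lipid droplet coat protein, had medians of 2080 and 1592 CPM in subcutaneous fat. In liver they were at most 0.608 and 0.268 CPM outside Western liver 5, which had 5.23 CPM of Adipoq, 3.29 CPM of Plin1 and 9.49 CPM of the hormone Lep. Ntrk2 in that liver was 9.68 CPM, within the 6.99 to 26.3 CPM of its group. The adipocyte list summed to as much as 276 CPM in liver, mainly through Cidec, a lipid droplet protein, which reached 217 CPM.

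Per length, the order of levels across tissues differed by gene. On the authors' FPKM scale Ntrk2 was a fat transcript: its group means ran from 3.55 ± 2.91 (SD, n = 5, visceral control) to 11.5 ± 1.18 (subcutaneous Western) in fat, and from 0.0037 ± 0.0083 to 1.73 ± 0.53 in liver. Neighbouring groups in that order overlapped except control liver, which lay below all others. Chrna4 was a liver transcript in these tissues. Its means were 13.4 ± 4.05 FPKM in Western, 4.34 ± 2.67 in control+NaKtide, 2.65 ± 1.17 in Western+NaKtide and 0.455 ± 0.292 in control liver, and at most 0.0685 ± 0.0253 in any fat group. The lowest control liver, at 0.142 FPKM, lay above every fat library, and the middle 2 liver groups overlapped. Ly6d had the highest level of the 4, at 276 ± 107 FPKM in Western+NaKtide and 73.5 ± 63.9 in Western liver, which did not overlap by a narrow margin on this scale (lowest 178, highest 177). The other 10 groups, at 1.55 to 8.20 FPKM, overlapped along the order. Lhx2 reached 0.980 ± 0.277 FPKM in Western and 0.799 ± 0.261 in Western+NaKtide liver, which overlapped.

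**Figure D4:**
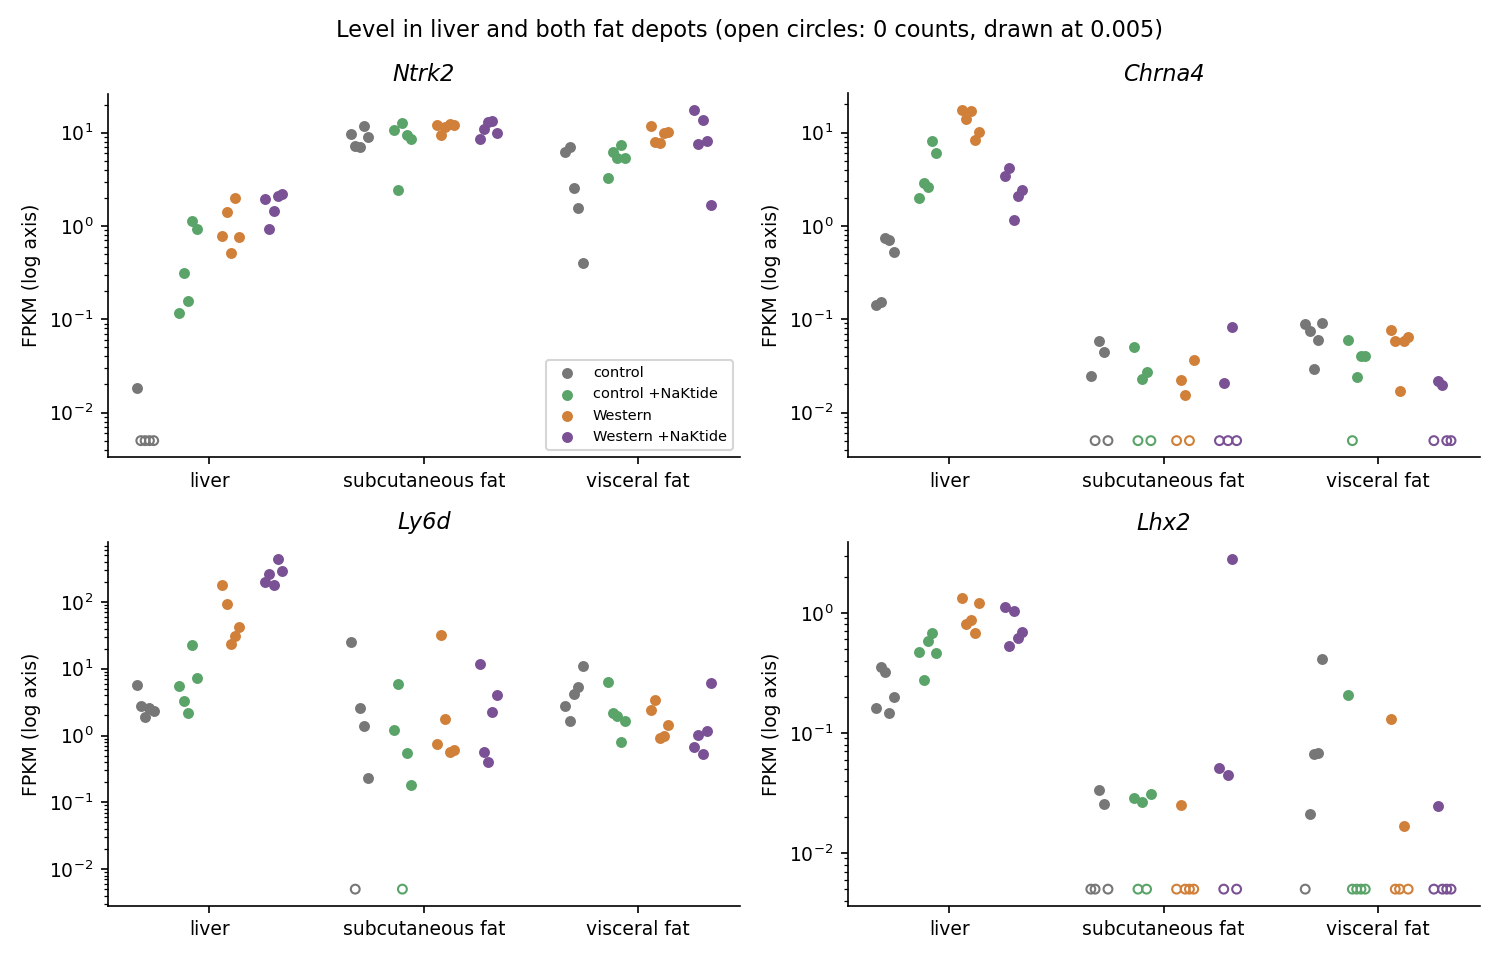
FPKM (log axis) of each gene in the 60 libraries, by tissue and group. Libraries with 0 counts are open circles drawn at 0.005. Chrna4 is above 0.1 FPKM only in liver, and Ntrk2 in liver is at most 2.22 FPKM while the subcutaneous group means are 8.79 to 11.5 FPKM.

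In subcutaneous fat Ntrk2 was high in every group. Its values were 223, 167, 166, 266 and 209 CPM in control, 247, 55.1, 287, 220 and 199 in control+NaKtide, 273, 218, 265, 283 and 273 in Western, and 193, 250, 295, 291 and 225 CPM in Western+NaKtide libraries. The groups overlapped in each comparison. The low library, control+NaKtide 2, had 212110 CPM of skeletal muscle markers. These markers summed to 6673 to 48956 CPM in control and 65.7 to 212110 CPM in control+NaKtide libraries. In Western libraries they summed to 20.2 to 176 CPM, and in Western+NaKtide libraries to 22.2 to 3395 CPM. Control and Western libraries thus differed in muscle content without overlap, and its part in the Ntrk2 differences was not tested. No member was called in the 4 subcutaneous comparisons by edgeR's quasi-likelihood test (Benjamini-Hochberg adjusted). Of 15226 genes 5.61% were called for diet and 0% for each of the other 3, where 3735, 1873 and 918 genes had an unadjusted p under 0.05 and DESeq2 called 1194, 194 and 0. The Ntrk2 log2 difference for diet was 0.35 ± 0.28 (adjusted p = 0.459). Under NaKtide it was 0.32 ± 0.28 (adjusted p = 0.500), and 0.08 without control+NaKtide library 2. For NaKtide it was -0.06 ± 0.28 on Western diet (adjusted p = 0.965) and -0.03 ± 0.28 on control diet (adjusted p = 0.994).

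Visceral fat gave a wider range of Ntrk2. Control libraries had 153, 173, 66.7, 38.4 and 8.85 CPM, and the last 3 are those with epididymis and testis transcripts. The library at 8.85 CPM had 779 CPM of adipocyte markers against 8756 to 23879 in the other 4. Western libraries had 285, 196, 192, 250 and 254 CPM, all above the controls, as in 8.08% of the 17235 genes tested. The log2 difference was 1.42 ± 0.60 (edgeR adjusted p = 0.0819, 24.9% of genes called). DESeq2 gave 1.39 (adjusted p = 0.0358) and called 6364 genes, against 4287 by edgeR. Without the 6 libraries of over 1000 CPM of tract markers the difference was 0.54 (edgeR adjusted p = 0.201). That fit keeps only libraries 1 and 2 of the control group. Control+NaKtide libraries had 77.8, 152, 131, 184 and 131 CPM and Western+NaKtide libraries 440, 189, 335, 210 and 40.8 CPM. The lowest of each group was again a library with tract transcripts. Diet under NaKtide gave 0.85 ± 0.59 (edgeR adjusted p = 0.473, 4.82% of genes called). Without those 6 libraries it gave 1.15 (edgeR adjusted p = 0.00699), in a fit that called 2145 genes against 830 with them. NaKtide gave 0.04 ± 0.58 on Western diet (edgeR adjusted p = 0.970, 13.2% called) and 0.62 ± 0.59 on control diet (adjusted p = 0.465, 7.15% called).

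Ly6d in fat was set by single libraries. In subcutaneous fat the highest were Western library 2 at 28.3 CPM, control library 1 at 22.7 CPM and Western+NaKtide library 1 at 10.2 CPM, with all other libraries at 0 to 5.12 CPM. Those 3 also had the highest sums of T cell markers, 92.3, 31.5 and 23.9 CPM, against 2.1 to 12.5 in the others. In visceral fat Ly6d was 0.502 to 9.24 CPM. The 5 libraries above 4 CPM, control 3, 4 and 5, control+NaKtide 1 and Western+NaKtide 5, had 58.8 to 184 CPM of squamous epithelium markers against at most 20.2 in the others. All 5 also held more than 1000 CPM of epididymis and testis markers, as did Western+NaKtide 2, at 0.982 CPM of Ly6d. The part of any of these marker lists in the Ly6d values was not tested. None of the 8 Ly6d tests in fat was called (edgeR, lowest adjusted p = 0.132 for diet in visceral fat, log2 difference -1.38 ± 0.68).

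Chrna4 and Lhx2 did not pass the low-count filter in fat. Chrna4 had at most 3 counts in a subcutaneous and 4 in a visceral library, with 9 and 4 of 20 libraries at 0. Lhx2 had at most 2 counts in subcutaneous libraries except Western+NaKtide library 4, with 89 counts or 14.2 CPM, and was at 0 in 11 of 20. That library also had the highest level of 5 of 5 neuron markers, such as Snap25, a protein of synaptic vesicle release, at 97.2 CPM against at most 1.04 elsewhere in the depot, and Rbfox3 at 25.7 against at most 0.647 CPM. The labels' extraction protocol also lists hippocampus and cerebellum. In visceral fat Lhx2 reached 16 counts in control library 5 and 9 in control+NaKtide library 1, both with tract transcripts.

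**Figure D5:**
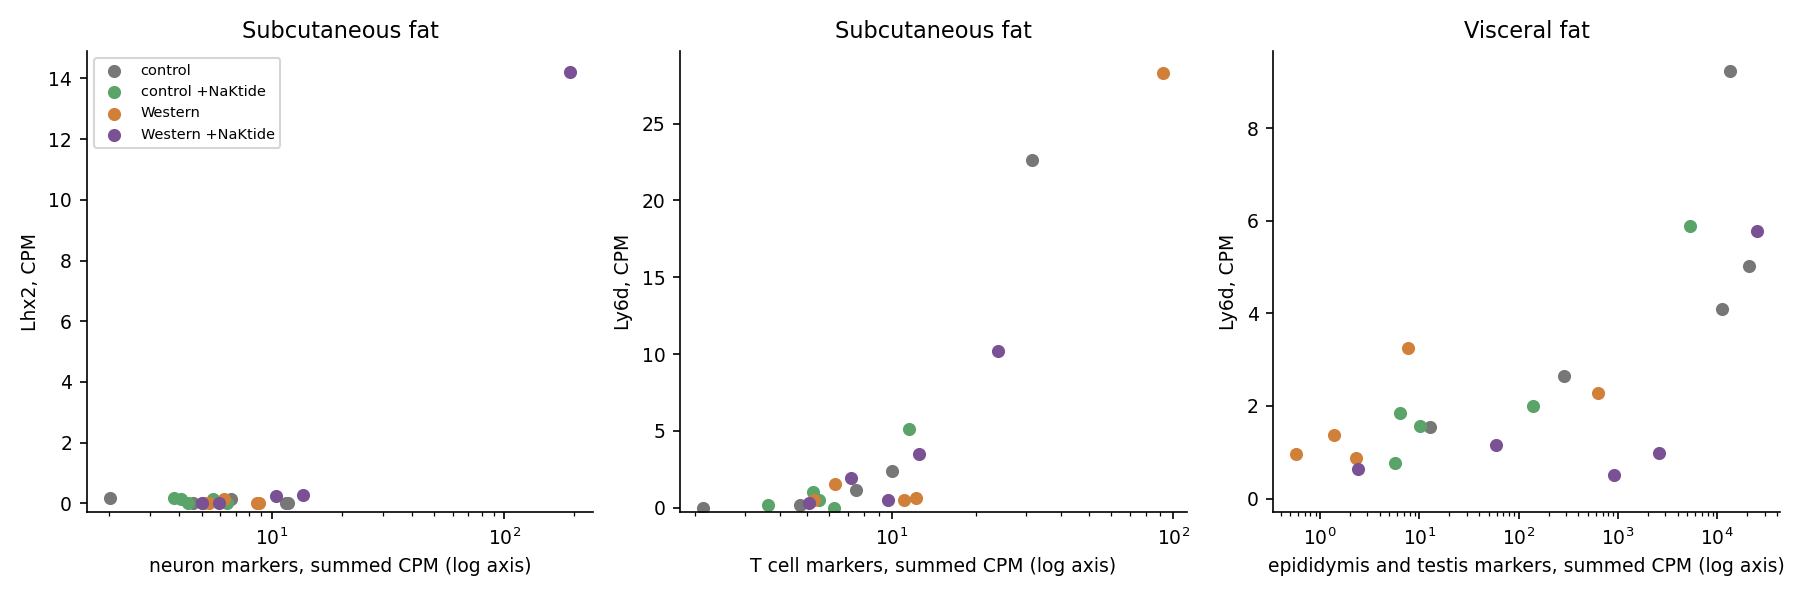
Level of Lhx2 or Ly6d (vertical axes, CPM) against summed CPM of a marker list (log axes) in 20 libraries of a depot. The library with 14.2 CPM of Lhx2 lies apart on the neuron axis, and the highest Ly6d values lie at the upper end of the T cell axis and of the epididymis and testis axis.

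The genes around TrkB were measured through 12 ligands and receptors, 18 adaptors and effectors and 15 immediate early and feedback genes, of which 4, 14 and 6 could be tested in liver. On Western diet without NaKtide 1 of each list rose and none fell, with list medians of 0.73, 0.04 and 0.42 on the log2 scale against 0.03 over all genes. In liver 8.44% of genes were called in that comparison. Sorl1, a sorting receptor of the sortilin family, rose from 0.526 ± 0.461 to 2.66 ± 0.579 CPM (2.29 ± 0.46, edgeR adjusted p = 0.0035). At that control level Sorl1, like the members, passed the low-count filter through the groups where it was higher, which limits this test. Sos1, the exchange factor that activates Ras, rose from 11.6 ± 2.53 to 19.4 ± 3.86 CPM (0.74 ± 0.16, adjusted p = 0.0074), and Dusp6, a phosphatase that switches off ERK, from 10.4 ± 2.50 to 24.9 ± 5.60 CPM (1.25 ± 0.32, adjusted p = 0.0159, and 0.101 without control livers 2 and 4). These calls held without both Western-fed livers numbered 1, as did every call named below.
The ligand Bdnf was low in each liver group, at means of 0.726 to 1.41 CPM, and did not pass the filter.

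In the comparisons that involve NaKtide, Sort1, Rapgef1, Sos1 and Sorl1 were called. Sort1, sortilin, fell on Western diet from 11.8 ± 3.86 to 4.94 ± 0.967 CPM (-1.22 ± 0.29, edgeR adjusted p = 0.0189, 4.79% of genes called), the 1 called gene of 4 ligands and receptors. Its call was lost in 6 of 17 alternatives, with adjusted p up to 0.0644. Rapgef1, an exchange factor for Rap1, rose from 28.9 ± 2.23 to 40.5 ± 5.83 CPM (0.49 ± 0.13, adjusted p = 0.0348), 1 of 14 adaptors, and lost its call in 10 of 17 (up to 0.128). On control diet, with 1.55% of genes called, Sos1 rose from 11.6 ± 2.53 to 18.9 ± 1.75 CPM (0.70 ± 0.16, adjusted p = 0.0322) and was the 1 called gene of 41 tested over the 8 lists, a call lost in 8 of 17 alternatives (up to 0.119). Its NaKtide effect differed between diets (-1.23 ± 0.23, adjusted p = 0.0055, the 1 called of 41, against 5% of genes, and called in all 26 alternatives). For diet under NaKtide, with 24.5% of genes called, Sorl1 (1.13 ± 0.36, edgeR adjusted p = 0.0274) rose while Sort1 (-1.43 ± 0.29, adjusted p = 0.0022) and Sos1 (-0.49 ± 0.16, adjusted p = 0.0329) fell. There Sort1 was called in all 17 alternatives, and Sorl1 and Sos1 each lost the call in 5 of them, with adjusted p up to 0.0646 and 0.0902. No gene of the immediate early list was called there, and its median was 0.38.

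For Chrna4, of 15 nicotinic receptor subunits other than Chrna4, 9 had a count in liver and 2, Chrna2 and Chrnb2, were tested and not called in any comparison. Chrnb2, the usual partner of alpha4, had means of 1.75 to 2.82 CPM in the 4 groups. Of 11 chaperones and acetylcholine-handling genes 2 were tested and neither was called. Of 32 further Ly6/uPAR genes 6 were tested and none was called for diet without NaKtide. Under NaKtide, where 24.5% of all genes were called, 3 of the 6 rose with Western diet and none fell. Ly6a, the Sca-1 antigen, rose from 6.74 ± 2.65 to 16.3 ± 4.10 CPM (1.26 ± 0.29, edgeR adjusted p = 0.0051) and Cd59a, an inhibitor of complement, from 128 ± 19.0 to 219 ± 43.3 CPM (0.77 ± 0.20, adjusted p = 0.0103). Cd59a also rose with NaKtide on Western diet, from 126 ± 29.7 CPM (0.80 ± 0.20, adjusted p = 0.0234). It was the 1 called of 6, against 4.79% of all genes, a call lost in 7 of 17 alternatives (up to 0.0793).

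Among 11 LIM homeobox genes other than Lhx2, Lhx6 alone could be tested, and it rose on Western diet from 3.85 ± 2.32 to 9.34 ± 3.25 CPM (1.30 ± 0.33, edgeR adjusted p = 0.0165). The call was lost without control livers 2 and 4 (adjusted p = 0.101) and in the fit of the 2 groups alone. Of 11 LIM domain cofactors 7 were tested. Of these 1 rose with diet without NaKtide (8.44% of all genes called), 2 rose and 1 fell with diet under NaKtide (24.5% called), and 1 fell with NaKtide on Western diet (4.79% called). Lmo2, a LIM-only bridging protein, rose on Western diet from 2.22 ± 0.521 to 4.92 ± 1.58 CPM (1.14 ± 0.26, adjusted p = 0.0090, and 0.0761 without control livers 2 and 4) and under NaKtide from 2.66 ± 0.534 to 5.18 ± 1.29 CPM (0.96 ± 0.25, adjusted p = 0.0110). Ssbp4 rose with diet under NaKtide too (1.57 ± 0.34, adjusted p = 0.0035). Cited2, a transcriptional coregulator, fell there (-0.58 ± 0.18, adjusted p = 0.0260, lost in 3 of 17 alternatives) and with NaKtide on Western diet, from 14.0 ± 2.04 to 7.91 ± 1.64 CPM (-0.82 ± 0.18, adjusted p = 0.0116).

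For each gene the 5 liver genes with the most similar pattern were named, by Pearson's r of log2 CPM over 20 livers among 11482 genes. For Ntrk2 these were Elovl5 (r = 0.93), Scd1 (0.91), Lacc1 (0.90), Rgs16 (0.90) and Mtor (0.89), with r of 0.52 to 0.72 after the group means were removed. Elovl5 elongates and Scd1 desaturates fatty acids, and Scd1 stood at 2249 ± 680 CPM in control, 6176 ± 3810 in control+NaKtide, 8837 ± 2211 in Western and 7651 ± 1433 in Western+NaKtide livers. For Chrna4 they were Pnpla3 (0.91), Frmd4b (0.89), Mr1 (0.89), Me1 (0.89) and Ttc25 (0.88), with 0.45 to 0.69 within groups. Pnpla3, a lipid droplet lipase and transacylase, had 0 counts in control livers, and means of 2.60 ± 4.05, 14.8 ± 9.55 and 2.90 ± 2.48 CPM in control+NaKtide, Western and Western+NaKtide livers. Me1, malic enzyme, which supplies NADPH for fatty acid synthesis, had 102 ± 18.5, 434 ± 249, 710 ± 265 and 279 ± 153 CPM in control, control+NaKtide, Western and Western+NaKtide livers.

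For Ly6d the closest genes were Anxa2 (r = 0.96), Ifi27l2b (0.96), Nrg1 (0.95), Sult1e1 (0.94) and S100a11 (0.94), with 0.60 to 0.79 within groups. Anxa2, a calcium-dependent membrane-binding protein, stood at 11.4 ± 2.13, 19.2 ± 14.4, 66.8 ± 42.6 and 131 ± 41.0 CPM, and S100a11, a calcium-binding partner of annexins, at 9.46 ± 1.78, 9.08 ± 2.39, 40.0 ± 38.5 and 150 ± 89.4 CPM, both in the order just used. For Lhx2 they were Tceal8 (0.86), Cs (0.86), Kpnb1 (0.85), Tbc1d31 (0.85) and Tubb2b (0.85), with 0.28 to 0.53 within groups. Cs, the mitochondrial citrate synthase, had 128 ± 4.91, 162 ± 22.2, 293 ± 39.8 and 216 ± 17.1 CPM. No gene appeared among the nearest 5 of more than 1 member. These are similarities of 20 libraries chosen from many genes and carry no test.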

How the data were processed

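Tissue RNA from 60 samples was sequenced with a stranded mRNA kit in pairs of 50 bp. The authors deposited 3 tables: raw counts per gene, a normalized signal that equals the counts divided by 1 size factor per library, and FPKM, per the file headers. Signal over count was the same for all genes of a library (60 of 60, tolerance 1e-06). Per the submitters' processing notes the tools were HISAT2 2.1.0, Trimmomatic 0.38 and DESeq2 1.20.0, on GRCm38. Which program and annotation counted the reads is not given in the sources used.

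Raw counts were fitted with edgeR 4.0.16 under R 4.3.3: TMM factors, the filterByExpr filter, and quasi-likelihood tests whose p-values were adjusted by Benjamini-Hochberg over all genes tested, with a threshold of 0.05. Each tissue had 1 model of 4 groups, with a prior count of 0.125 for fitted differences and 2 for log2 CPM. SE is the log2 difference over the square root of F. Genes tested numbered 12991 in liver, 15226 in subcutaneous and 17235 in visceral fat. CPM are scaled within a tissue, and the deposited FPKM, on 1 scale over all libraries, were used for levels across tissues and between genes. The members, the 8 gene lists and the 18 marker lists were chosen with earlier results of these data known. The text names the 4 members, the 5 genes most like each over the livers (mean of at least 1 CPM, no predicted models), and up to 2 rising and 2 falling called genes with the smallest p per list and liver comparison. Bdnf, the 2 tested nicotinic subunits, and marker genes such as Adipoq and Snap25 were named after their values were seen. Some genes the rule picks are not reported here. Tried as alternatives were RLE scaling, no filter, DESeq2 1.42.0, a replicate block, the 2 groups alone, a prior count of 2, each library left out in turn, and fits without libraries in doubt. On simulated counts, with changed genes drawn only from those above a mean of 5 CPM, the liver diet fit recovered 74% of genes changed 2-fold. It recovered 97% of those changed 4-fold. The subcutaneous fit recovered 59% and 97%, and the visceral fit 16% and 66%. Recovery was not measured for lower genes, such as Ly6d at medians of 0.855 CPM in subcutaneous and 1.70 CPM in visceral fat. No 2 libraries of a group agreed within sampling noise (lowest mean chi-square per gene 3.1 over 120 pairs).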

Additional observations from a re-analysis of the deposited data

Results flagged for a closer look

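Of 48 groups of 5 libraries (4 genes in 12 groups), 17 had a library whose gap to its nearest neighbour filled more than 0.71 of the group's range. No chance rate is set beside this count. Where 4 libraries were at 0, any count in the other one fills the whole range. In liver Ntrk2 stood at 0.237 CPM in control library 1 with the other 4 at 0, a difference of 1 count. Ly6d stood at 2.84 CPM in the same liver against 0.945 to 1.40, and at 11.4 CPM in control+NaKtide liver 4 against 1.11 to 3.7.

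In subcutaneous fat Ntrk2 was low in Western library 2 (218 CPM against 265 to 283). Western+NaKtide library 4, which holds neuron transcripts, was high for Lhx2 (14.2 CPM) and Chrna4 (0.479 CPM, 3 counts). Lhx2 had a single count in Western library 2 (0.133 CPM). Ly6d was high in control library 1 (22.7 CPM), control+NaKtide library 2 (5.12 CPM, 8 counts) and Western library 2 (28.3 CPM).

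In visceral fat Chrna4 was low in Western library 3 (0.110 CPM against 0.375 to 0.479). Ly6d was high in control+NaKtide library 1 (5.88 CPM) and Western+NaKtide library 5 (5.78 CPM). Lhx2 was high in control library 5 (2.08 CPM), control+NaKtide library 1 (1.13 CPM), Western library 1 (0.719 CPM) and Western+NaKtide library 2 (0.140 CPM, 1 count). All of these except the libraries on Western diet without NaKtide exceeded 1000 CPM of epididymis and testis markers.

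Chrna4 in liver was lower with NaKtide in every Western-fed liver and higher in every control-fed liver, a difference of -5.67 on the log2 scale between the effects. That difference was not tested, because liver values chose the gene.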

How the results depend on the processing

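In liver the direction of all 20 member differences held under every alternative run. A prior count of 2 moved Ntrk2 to 5.17 for diet (from 7.76), 4.16 for NaKtide on control diet (from 6.72) and -3.56 for the difference between NaKtide effects (from -6.11), and Lhx2 to 1.64 for diet (from 2.04), since a larger prior shrinks low genes. Without control livers 2 and 4 Ntrk2 was at 7.14 for diet. Leaving out 1 library at a time gave Ntrk2 7.43 to 9.31 for diet and 6.22 to 8.27 for NaKtide on control diet. For the difference between NaKtide effects the range was -7.66 to -5.60. The ends 9.31, 8.27 and -7.66 came from dropping control liver 1 with its single count. Dropping Western liver 4 gave 7.43, and dropping control+NaKtide liver 4 gave 6.22 and -5.60. Leaving out 1 library also moved Ly6d for NaKtide on Western diet to 2.49 without Western liver 1 (from 1.85). On control diet it moved Ly6d to 0.61 without control+NaKtide liver 4 (from 1.49). The Ly6d difference between those effects moved from 0.36 to between 0.051 and 1.24.

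In fat 7 of 100 values turned sign and 2 passed the threshold, all named here, and the cause was not tested. The replicate block gave Ly6d -0.22 for subcutaneous diet and 0.065 for NaKtide on Western diet, and Ntrk2 -0.23 for NaKtide on Western diet in visceral fat. There Ly6d for the same comparison turned to 0.044 with RLE scaling, 0.027 without a filter and 0.024 with DESeq2, and Ntrk2 for NaKtide on control diet to -0.13 without tract-rich libraries. Ntrk2 passed the threshold for visceral diet with DESeq2 (1.39) and for diet under NaKtide without tract-rich libraries (1.15). In those comparisons these settings called 6364 and 2145 genes, against 4287 and 830 in the main fit. With 1 library left out the ranges were, in subcutaneous fat, Ly6d -2.68 to 2.63 for diet (without Western library 2 or control library 1), -1.997 to 1.97 for NaKtide on Western diet, and Ntrk2 -0.12 to 0.020 and -0.19 to 0.21 for NaKtide on Western and control diet. In visceral fat they were Ntrk2 1.14 to 1.85 for diet and -0.30 to 0.32 for NaKtide on Western diet. Ntrk2 was called for visceral diet without control library 2, where 5091 genes were called. Ly6d ran there from -1.56 to 0.11 for diet under NaKtide and from -1.09 to 0.34 for NaKtide on Western diet.

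For NaKtide on Western diet the 8 pathway lists gave 2 rising and 2 falling genes of 41, and 5 and 3 of 40 without both libraries numbered 1. The named calls kept their direction in every alternative.

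Counts of called genes moved past 1.5 times under 38 of 78 settings. In liver they ran from 656 to 1467 for diet (main 1097), 2327 to 4802 under NaKtide (3189), 321 to 3577 for NaKtide on Western diet (622), 62 to 433 on control diet (201) and 155 to 3678 for the interaction (649), where leaving out both libraries numbered 1 on Western diet gave 4802, 3577 and 3678. In subcutaneous fat they ran from 561 to 2104 (854), 0 to 1194 (0), 0 to 194 (0) and 0 to 0 (0), and in visceral fat from 1936 to 6364 (4287), 361 to 2145 (830), 985 to 4602 (2270) and 655 to 2919 (1233), in the order diet, diet under NaKtide, NaKtide on Western and on control diet. With 1 library left out, 74 of 140 counts moved past 1.5 times. The ranges were, in that order with the liver interaction last, 773 to 1134, 1704 to 4695, 224 to 2281, 59 to 402 and 192 to 2738 in liver, 200 to 1413, 0 to 1860, 0 to 0 and 0 to 0 in subcutaneous fat, and 1570 to 5091, 389 to 854, 1031 to 3770 and 628 to 3115 in visceral fat. The 0 to 1860 for subcutaneous diet under NaKtide reached 1860 without control+NaKtide library 3. Within a tissue, same-numbered libraries of different groups correlated above 0.1 in 7, 8 and 9 of 30 pairs in liver, subcutaneous and visceral fat. Libraries of unlike number did so in 44, 42 and 54 of 120 pairs. These pairs lie within a tissue and cannot say whether equal numbers mark the same mouse across tissues. The replicate block gave 760 calls for diet in liver. Fits of 2 groups alone gave no value where the gene failed the filter, and the interaction had none. Chrna4 and Lhx2 in most fat libraries and Ntrk2 in control liver lie at or near the floor of 3 counts, which limits the precision of their differences.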
